A study of Mus musculus with 2 samples.

Results

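Long noncoding RNA (lncRNA) genes that stand away from protein-coding genes were examined for binding of a mouse Dux chimera in C2C12, a mouse myoblast line. A peak was taken as a member where its summit lay within 5 kb of either end of a RefSeq lncRNA gene, outside every protein-coding gene and over 5 kb from every protein-coding gene end, on chromosomes 1 to 19. By this rule, which uses position and no measured height, 2444 of the 51356 peaks of the whole list were members, and they made up 4.98% of the 49034 peaks on those chromosomes (exact binomial 95% interval 4.79 to 5.18%). Another 1629 peaks had a summit within 5 kb of a lncRNA end but lay in or near a protein-coding gene and were left out.

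Chromatin immunoprecipitation followed by sequencing was done on 2 libraries, both from cells of 1 monoclonal line with a codon-altered MMH transgene, kept under puromycin and induced with 2 ug/ml doxycycline for 18 h. After removal of repeated fragments the antisera library held 26253175 fragments and the control library 23412256. The antisera library was precipitated with MO488 mixed with MO489, antibodies raised against DUX4, and the control library with an antibody labelled anti-HA, although the design text of the series names a GFP antibody for the control. In MMH the homeodomains are those of mouse Dux and the rest of the protein, toward the carboxy terminus, is that of DUX4, so the product is a chimera and not mouse Dux itself. With 1 library per antibody there was no replicate, no test between the libraries was possible, and all values below describe 1 peak list. The human DUX4 data named in the design were not analysed here. The list holds no expression values, so neither the myoblast identity of the cells nor the transcription of any lncRNA could be checked in it.

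Dux and DUX4 are double-homeodomain transcription factors of the early embryo, and both are known to bind long terminal repeats of endogenous retroviruses, some of which then serve as promoters. LncRNAs are transcripts without a recognised protein product. Some act in the nucleus on chromatin or splicing, others host microRNAs or small nucleolar RNAs, and for most of the predicted models, whose names begin with Gm, no function is established.

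Letters under these summits were read only in lncRNA promoters. The RefSeq promoter windows (build GRCm38.p6, with the chromosome coordinates of mm10) were the stretches of sequence at hand. Each window covers 250 bases before and 50 after a gene start, and 11311 windows of 9291 lncRNA genes could be matched on these chromosomes. In 65 of them, from 62 genes, lay the summit of 1 of 60 member peaks, which had a median pileup of 40.5 fragments. These 60 are 2.45% of the 2444 members, and no letters were read at the other members. The stretches below reach up to 30 bases to either side of the summit and are written 5′ to 3′ on the strand of the lncRNA. They are shorter where the promoter window ended. They belong to the 10 peaks in promoters with a pileup of 100 or more and to 3 lower peaks that show other matched forms and were chosen after their letters had been read. Capitals mark matches on either strand to 3 patterns. The first has 11 letters, TGAT and AATCA with any 2 bases between them, the second has 11 letters, TAAT and AATCA with any 2 bases between them, and the shorter one has 9, TGATTNAAT.
Gm33224 (chr1:166049025-166049064, minus strand, pileup 336): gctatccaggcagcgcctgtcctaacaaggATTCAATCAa
4930597A21Rik (chr11:44586147-44586207, plus strand, pileup 215): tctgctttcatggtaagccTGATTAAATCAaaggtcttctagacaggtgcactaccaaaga
Gm31951 (chr14:24830287-24830321, minus strand, pileup 202): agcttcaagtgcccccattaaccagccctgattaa
Gm39351 (chr9:62140482-62140542, plus strand, pileup 142): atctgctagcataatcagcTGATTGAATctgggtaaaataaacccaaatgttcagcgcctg
Gm41854 (chr19:44672209-44672269, plus strand, pileup 141): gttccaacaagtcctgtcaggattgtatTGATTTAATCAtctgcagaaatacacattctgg
Gm14062 (chr2:137876782-137876837, minus strand, pileup 137): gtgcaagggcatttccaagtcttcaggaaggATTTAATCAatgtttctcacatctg
2210417A02Rik (chr5:148741681-148741741, plus strand, pileup 126): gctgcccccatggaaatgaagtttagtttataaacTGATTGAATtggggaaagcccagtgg
Gm32733 (chr15:97107732-97107792, minus strand, pileup 125): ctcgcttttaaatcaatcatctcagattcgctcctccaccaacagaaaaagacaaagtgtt
Gm41335 (chr15:63357039-63357099, minus strand, pileup 113): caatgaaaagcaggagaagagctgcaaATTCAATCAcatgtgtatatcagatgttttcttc
Gm40425 (chr12:54549718-54549778, plus strand, pileup 102): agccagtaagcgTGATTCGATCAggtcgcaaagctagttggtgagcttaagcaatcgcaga
Gm42327 (chr4:135051383-135051443, minus strand, pileup 77): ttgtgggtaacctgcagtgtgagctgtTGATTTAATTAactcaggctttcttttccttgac
Gm32070 (chr15:31135946-31136006, minus strand, pileup 74): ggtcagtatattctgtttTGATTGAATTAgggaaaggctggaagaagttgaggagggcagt
Gm36089 (chr10:24553039-24553099, plus strand, pileup 71): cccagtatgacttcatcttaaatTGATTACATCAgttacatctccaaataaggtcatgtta
The letters TGATT, or their reverse complement AATCA, recur close to the summit in most of these stretches. At *4930597A21Rik* the match TGATTAAATCA had its centre 6 bp from the summit, and at *Gm41854* the match TGATTTAATCA lay 3 bp from it. At *Gm42327* and *Gm32070* the matched forms were TGATTTAATTA and TGATTGAATTA, 2 and 7 bp from their summits. The *Gm40425* promoter carried TGATTCGATCA, 13 bp from the summit. The stretches of *Gm31951* and *Gm32733* held no match, although the *Gm31951* stretch ended with the promoter window, 4 bases beyond the summit. Of the 10 peaks in promoters with a pileup of 100 or more, 8 had at least 1 of the 3 patterns in a promoter window that held the summit, but 5 of these 8 matched only the shorter pattern, which was chosen from the letters around these same summits. Either long pattern was found at 7 of the 26 peaks with a pileup of 60 or more (26.9%, exact binomial interval 11.6 to 47.8%) and at 5 of the 34 lower ones (14.7%, 4.95 to 31.1%). These intervals overlap widely.

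Counted over windows, the first pattern was found in 8 of the 65 lncRNA promoters that held a member summit (12.3%, interval 5.47 to 22.8%), against 11 of 11211 lncRNA promoters without any summit (0.0981%) and 0.217% of all 31396 promoters of the same length. The second pattern was found in 5 of the 65 (7.69%, interval 2.54 to 17.05%), against 0.268% of the lncRNA promoters without a summit and 0.354% of all promoters. Either long pattern was present in 13 of 65 windows (20%, interval 11.1 to 31.8%), against 0.366% of the lncRNA promoters without a summit. The first pattern with TC as its middle bases, which was searched as an exact form, was in 0 of the 65, which with an exact binomial interval allows a share of up to 5.52%, and in 3 of all 31396 promoters. Windows of neighbouring starts overlap, so the 65 are not independent.

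The shorter pattern TGATTNAAT was chosen after the letters around these summits had been read. It can overlap both longer patterns. It was in 14 of the 65 windows (21.5%, interval 12.3 to 33.5%), against 0.785% of the lncRNA promoters without a summit. In protein-coding promoters, which had no part in that choice, it was in 34 of 273 windows holding a summit (12.5%, interval 8.78 to 16.97%), against 0.429% of 19812 windows without one. The first long pattern was in 4.03% of those 273 coding windows (interval 2.03 to 7.10%) and the second in 2.20% (0.811 to 4.72%). Taken 1 pattern at a time, the intervals of the lncRNA and the coding promoters that held a summit overlapped. Either long pattern was in the 20% of lncRNA windows given above (11.1 to 31.8%), against 17 of the 273 coding windows (6.23%, 3.67 to 9.78%), and these intervals do not overlap. No test of that difference was made, and windows that share a peak or a match are counted more than once in it. Over the member promoters, the centre of the match lay a median of 6 bp from the summit for the first pattern (6 of 8 occurrences within 30 bp). It was 12 bp for the second (4 of 5), within windows that hold the summit by choice. The shorter pattern lay at 7 bp (14 of 16), but it was chosen from letters near these summits, so its closeness is built in. Some sites count more than once. The shorter pattern matched on both strands in overlapping letters at *4930597A21Rik* and *Gm41854*. For the first pattern, *4933435C09Rik* and *9430078K24Rik* share a summit and a site. A window without a match says only that these letters are not in it.

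**Figure D1:**
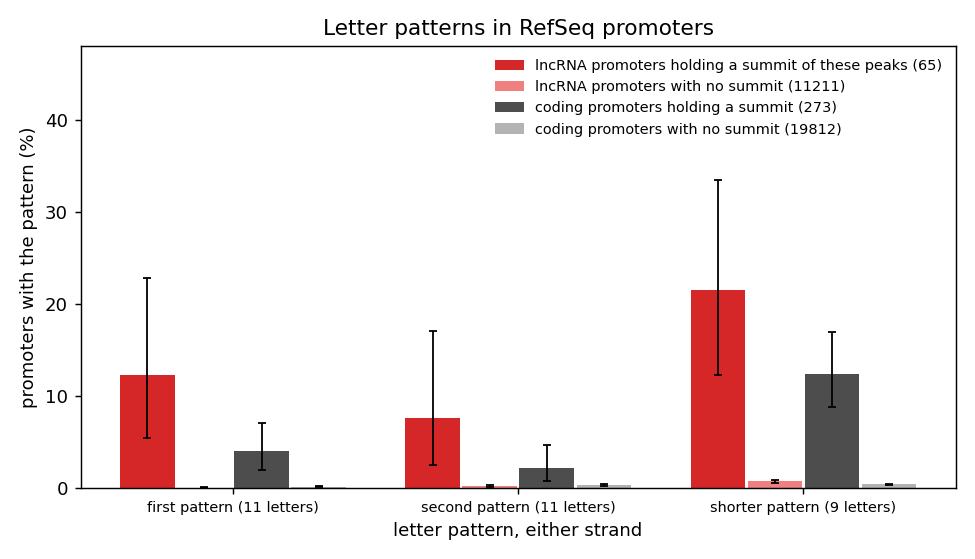
Share of RefSeq promoter windows (%, bars, with exact binomial 95% intervals) that hold each letter pattern on either strand, for lncRNA and protein-coding promoters with and without a peak summit. The first pattern was in 12.3%, the second in 7.69% and the shorter one in 21.5% of the 65 lncRNA promoters holding a member summit, against under 1% of lncRNA promoters without a summit for each. The shorter pattern was chosen from the letters around these same summits, so its excess there is partly built in. In coding promoters holding a summit, which had no part in that choice, it was in 12.5%.

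The whole promoter of *4930597A21Rik*, at chr11:44586067-44586366 on the plus strand, shows where the match sits relative to the gene start, which follows base 250. The summit is at base 111 and the only capitals are the match.
4930597A21Rik promoter: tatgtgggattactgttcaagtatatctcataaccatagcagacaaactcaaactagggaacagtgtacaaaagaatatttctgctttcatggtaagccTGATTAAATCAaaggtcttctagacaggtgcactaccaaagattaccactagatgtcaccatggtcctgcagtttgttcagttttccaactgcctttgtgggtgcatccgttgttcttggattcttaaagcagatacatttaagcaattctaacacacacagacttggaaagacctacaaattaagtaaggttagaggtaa
This peak had a pileup of 215 antisera fragments over a local background of 4.01 and a fold enrichment of 43.1.

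Members differed little in height from the rest of the list. Pileup counts the antisera fragments that cover the summit, and the fold enrichment divides it by the local background taken from the control, after adding 1 to each. The median pileup was 41 fragments in members (95% interval of the median 40 to 42), against 41 over all 49034 peaks. The quartiles were 29 and 74.2 in members and 29 and 70 over all peaks. Median fold enrichment was 8.18 in members (interval 7.78 to 8.38), against 8.10 over all peaks. A fold enrichment of 20 or more was reached by 360 members (14.7%, exact binomial interval 13.3 to 16.2%), against 13.8% of all peaks on these chromosomes. A pileup of 100 or more was reached by 384 members (15.7%, interval 14.3 to 17.2%), against 14.7% of all peaks. Both shares are near the background of the list and single out nothing about lncRNA ends. They are not separate measures, since 77.9% of all peaks share a floor of 4.01 fragments as their local background. At that floor the fold enrichment follows from the pileup alone.

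Other kinds of position gave similar values. The share with 20-fold enrichment or more was 14.6% in the 1319 peaks at intergenic pseudogene ends (interval 12.8 to 16.7%), 13.0% in the 20077 gene-desert peaks (12.6 to 13.5%) and 14.0% in the 6092 peaks within 5 kb of a protein-coding gene end (13.1 to 14.8%). It was 14.9% in the 1629 lncRNA-end peaks in or near coding genes (13.2 to 16.7%). Weak peaks, with a pileup of 25 or less, made up 15.7% of members and 16.8% of all peaks. When all peaks were ranked by pileup and divided into 10 groups of equal size, members made up between 4.303% and 5.49% of each, with 5.24% in the highest group (interval 4.63 to 5.90%) and 4.98% in the lowest (4.38 to 5.62%).

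**Figure D2:**
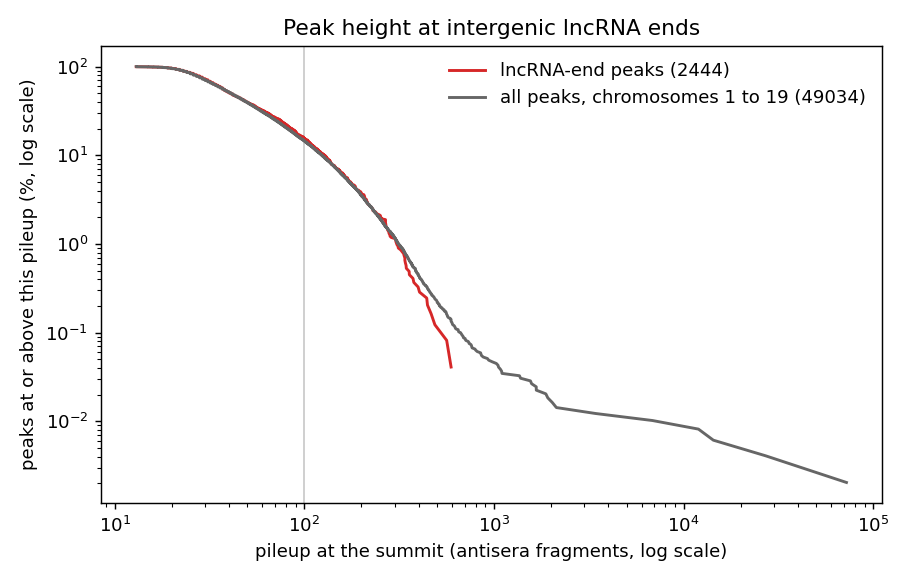
Percentage of peaks (y, log scale) at or above each pileup in antisera fragments (x, log scale), for the 2444 lncRNA-end peaks and for all 49034 peaks on chromosomes 1 to 19, with a line at a pileup of 100. The lines run together over most of their length, the members end at 594, and the whole list reaches 72123.

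By pileup alone, the highest members lay beside *AY036118* on chromosome 17, a gene annotated from 39848112 to 39898385 on the minus strand. The peak at chr17:39843960-39844790 had 594 antisera fragments over a local background of 138, a 4.28-fold enrichment. The next, at chr17:39845777-39848693, had 563 over 136, a 4.11-fold enrichment. Another, at chr17:39843120-39843488, had 213 over 125, which is 1.70-fold and the lowest fold enrichment on chromosomes 1 to 19. All 3 summits lay outside the gene, beyond its 3 prime end, and their background stood far above the floor of 4.01 fragments that 77.9% of all peaks share. Of all 49034 peaks, 110 had a local background of 10 or more, and 7 of the 2444 members did. The other 4 were at *Gm30417* (pileup 239, background 13.5, 16.6-fold), *Gm46898* (114, 16.3 and 6.66-fold), *Gm30613* (82, 12.3 and 6.23-fold) and *Gm40988* (49, 11.8 and 3.91-fold). What raised the control there was not tested.

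Among members with a background under 10, the highest was at chr15:65779579-65780980 inside the predicted gene *Gm41339* (65778741 to 65787043), 1503 bp from its nearer end. Its antisera pileup had a 95% Poisson interval of 446 to 533 fragments over a background of 4.01, and its 97.5-fold enrichment (89.1 to 107) was the highest of any member. The nearest protein-coding gene, *Efr3a*, lay 6776 bp away. The second, at chr6:126281824-126282506, had 466 fragments (425 to 510) over 4.49 and 85.1-fold enrichment. It lay 4483 bp beyond the 3 prime end of *Gm10415*, with *Ntf3*, which encodes the neurotrophin NT-3, 115394 bp away. The Poisson intervals of these highest peaks overlap, so their order is not resolved by counting error alone.

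*Gm28497* on chromosome 1 had a pair of such peaks upstream of its start. The peak at chr1:69429356-69430118 had 446 fragments (interval 406 to 489.4) and 89.2-fold enrichment, 1465 bp upstream, and the peak at chr1:69428365-69429035 had 398 (360 to 439) and 79.6-fold enrichment, 2545 bp upstream. The nearest coding gene was *Ikzf2*, which encodes the zinc-finger factor Helios, 101446 bp from the first of them. Among all members, 204 (8.35%) had another member summit within 1.5 kb. Neighbouring summits outside the rule were not counted, and the share over all peaks was not computed.

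At *Gm42250* on chromosome 4, 442 fragments (402 to 485) stood 544 bp outside the gene, an 88.4-fold enrichment. *Lyn*, a Src-family kinase gene, was the nearest coding gene there, at 20050 bp. *Mir670hg*, the host gene of *Mir670* on chromosome 2, had 405 fragments (367 to 446) at chr2:94267330-94267993, an 81.0-fold enrichment, 2557 bp upstream of its 5 prime end. The summit was 6261 bp from the *Mir670* hairpin and 26207 bp from that of *Mir129-2*, which lies in the same gene. A second, low peak of 20 fragments (4.19-fold) lay at chr2:94268370-94268666.

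The remaining 19 of the 25 highest had pileups from 303 to 378. All 25 reached at least 41.3-fold enrichment, and 21 of them had a local background at the floor. They lay beside 24 genes on 14 chromosomes, and 21 peaks had a gene of the Gm type as their nearest, counting both *Gm28497* peaks, while 3 had a RIKEN clone gene. The summit was inside the lncRNA in 8 and outside in 17, and 11 were within 1 kb of an end. Where the strand was known, 9 were nearer to the 5 prime and 7 to the 3 prime end. Some stood near an end almost exactly: the *Gm40769* summit was 5 bp inside its gene with 339 fragments, and the *Gm33224* summit, whose sequence is shown above, was 58 bp downstream of the 5 prime end with 336 fragments. The nearest coding gene lay 6149 to 418339 bp from the 25 summits, with a median of 46285 bp. Among the closest were *Ccl6* at 6149 bp, *Ebna1bp2* at 12787 bp and *Prss12* at 14194 bp. Other nearest coding genes are given here because of their names, and they do not stand for the 25. *Pou2f1* lay at the median distance, 46285 bp from the *Gm33224* peak, and *Fos* 36873 bp from that of *Gm40477* (322 fragments). *Ets1* lay 150230 bp from the peak of *Gm27162* (334 fragments) and *Klf7* 61312 bp from that of *Gm13749* (312 fragments). *Mbnl1*, a splicing regulator of muscle, lay 162032 bp from that of *Gm33650* (345 fragments). Distance alone does not link a peak to any of these genes. In the whole list the pileups of the 25 ranked from 121 to 563.

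**Figure D3:**
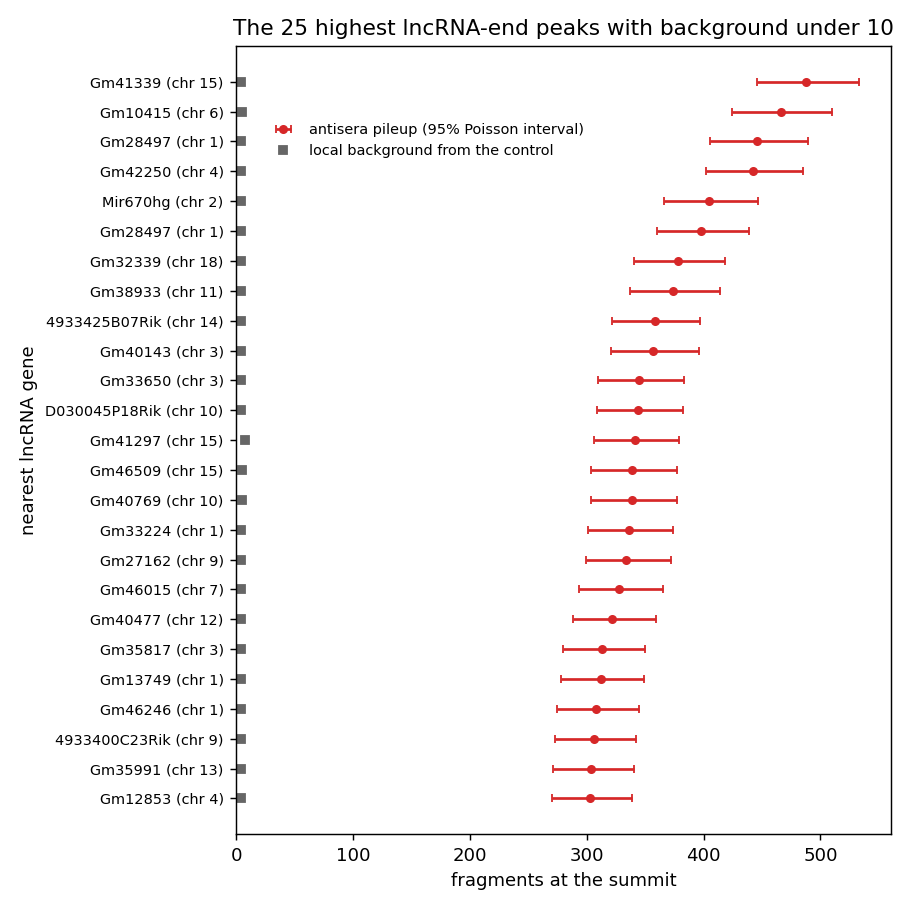
Antisera pileup at the summit (circles, with 95% Poisson intervals, in fragments) and local background from the control (squares) for the 25 highest lncRNA-end peaks with a background under 10, by nearest lncRNA gene. Pileups run from 303 at *Gm12853* up to *Gm41339*, whose interval is 446 to 533, and the highest background among them, 7.29 fragments, is at *Gm41297*.

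Of 111 names on a list of lncRNA genes with a described role, 85 were matched, and 63 of these had an end away from coding genes. A member peak lay within 5 kb of 12 of the 63 (19.05%, exact binomial interval 10.2 to 30.9%), against 24.97% of all 8095 lncRNA genes with such an end, a share that the interval includes. The 17 peaks there had a median pileup of 47 fragments, and 3 of them reached 20-fold, against the 13.8% of all peaks that did. *Rmst*, a lncRNA of neural progenitors, had the highest, with 196 fragments (interval 170 to 225) and 39.3-fold enrichment at chr10:92162967-92163620, inside the gene, and a second of 108 fragments at chr10:92077148-92077717, outside it, over a raised background of 6.73 (14.1-fold). *Mir100hg*, which hosts *Mir100*, *Mirlet7a-2* and *Mir125b-1*, had 148 fragments (125 to 174, 29.7-fold) inside its 3 prime end and 36 and 27 fragments beyond it. Its summits lay 30778 bp or more from the nearest hairpin, *Mir125b-1*. *Mir124-2hg*, host of a copy of the neuronal microRNA miR-124, had 122 fragments (101 to 146, 24.5-fold).

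The other genes of the list had lower values. *Pvt1*, the lncRNA beside *Myc*, had 104 fragments over a background of 6.17 (14.6-fold), 1733 bp inside an end. *Snhg15*, a small nucleolar RNA host, had 86 fragments (17.4-fold) inside the gene and 47 (9.57-fold) 1139 bp upstream. *Lncenc1*, expressed in embryonic stem cells, had 81 (13.6-fold), and the pluripotency-associated transcripts *Platr22* and *Platr3* had 71 (13.1-fold) and 40 (8.18-fold). *Tug1* had 38 fragments (7.78-fold). *Hotair*, of the HoxC cluster, had 25 and 23 (4.92-fold and 4.75-fold), *Bvht*, a lncRNA of heart development, had 24 (4.99-fold), and *Lincred1* had 20 (4.19-fold), 179 bp upstream of its start. The *Lincred1* summit was in a RefSeq promoter, and the letters ATTTAATCA there lay 40 bp from it. No member peak was found within 5 kb of *Malat1*, *Neat1*, *H19*, *Meg3*, *Fendrr*, *Carmn*, *Trp53cor1*, *Mir17hg* or the others that make up the 51 remaining genes. Peaks outside the rule were present at some of these 51: a called summit in or near a coding gene lay within 5 kb of an end of 3, and counting summits anywhere in the gene as well brought this to 13.

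Hairpins of the RefSeq miRNA sequence table, which is not complete, lay inside 20 of 2071 lncRNA genes with a member peak, a count that includes genes with both ends near coding genes. The share over all lncRNA genes was not counted, so the 20 cannot be called many or few. Beyond those on the list above, and named after their values were seen, *A230057D06Rik* on chromosome 7, which spans the *Mir344* family, had peaks of 275, 274 and 84 fragments (55.1-fold, 54.9-fold and 16.95-fold) at chr7:61706360-61707105, chr7:61708207-61709184 and chr7:61701774-61702425. The nearest hairpin, *Mir344d-3*, was 17391 bp from the closest of these summits. *Mir205hg* had 60 and 46 fragments (12.2-fold and 9.37-fold), 3767 and 6058 bp from *Mir205*, a microRNA of epithelia.

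Of 8095 lncRNA genes with an end away from coding genes, 2021 had a member peak within 5 kb of an end (24.97%, exact binomial interval 24.0 to 25.9%). In 1565 there was 1 peak, in 358 there were 2 and in 98 there were 3 or more. *Gm34739* on chromosome 2 had the most, 5, with pileups of 139, 60, 42, 24 and 20. Another 17 genes had 4, counting genes whose ends share peaks, among them *C030018K13Rik* on chromosome 5 with pileups of 269, 187, 36 and 33. Pseudogenes counted the same way had a peak in 1204 of 6726 (17.9%, from 16.99 to 18.8%), but their median length was 946 bp against 10062 bp for the lncRNA genes, so that the flanks of both ends of a pseudogene cover less DNA. By name, RIKEN clone genes had a peak in 28.0% of 1152 cases (25.4 to 30.6%), Gm models in 24.7% of 6530 (23.7 to 25.8%) and LOC models in 17.5% of 160 (12.0 to 24.3%).

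Counted per length of DNA, which allows for this, the flanks of lncRNA ends held 21.2 peaks per Mb (95% Poisson interval 20.4 to 22.1) over 115 Mb. The flanks of pseudogene ends held 19.5 (18.5 to 20.5), and all territory away from coding genes held 19.8 (19.6 to 20.03) over 1337 Mb. Leaving lncRNA ends out of that territory gave 19.7 (19.4 to 19.9). The density at lncRNA ends was 1.07 times that of the territory, with intervals that do not overlap but cover counting error only. The territory was counted from base 1 of each chromosome, so any unsequenced bases in it lower its density. The ratio therefore does not show that lncRNA ends held more peaks than sequenced DNA elsewhere. Without chromosomes 4 and 15 the ratio was also 1.07. With 1 peak kept per lncRNA gene it was 0.849, but this lowers the count at lncRNA ends only and not that of the territory. The fall is therefore built in and is no comparison of like with like. Nearest to the ends the density was 23.8 peaks per Mb within 0.5 kb (21.3 to 26.5) and 23.0 from there to 1 kb (20.5 to 25.7). It was 19.9 between 1 and 2 kb (18.2 to 21.7) and 20.9 between 3 and 4 kb (18.97 to 22.9), and stood at 21.9 between 7500 and 10000 bp (20.4 to 23.4). The share of the DNA in which reads can be placed was not measured.

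**Figure D4:**
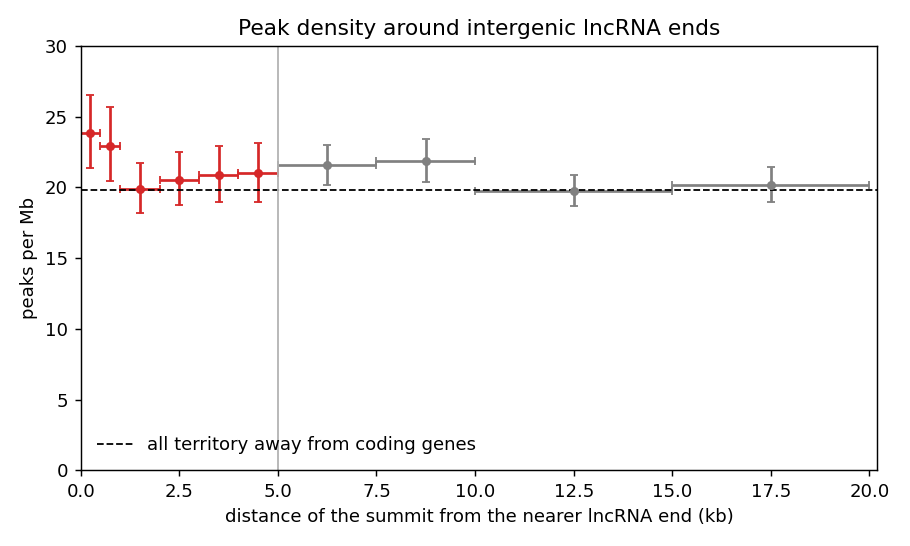
Peaks per Mb (y, with 95% Poisson intervals) by distance of the summit from the nearer lncRNA end in kb (x, horizontal bars give the width of each step), away from coding genes, with the 5 kb limit of the rule as a line. The first step reaches 23.8 peaks per Mb, the others lie between 19.8 and 23.0, and the dashed line for all such territory is at 19.8.

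The strand was known for the nearest lncRNA of 1862 members, and 927 of them were nearer to the 5 prime end (49.8%, interval 47.5 to 52.1%). In steps of 500 bp along the strand, density was 32.1 peaks per Mb in the step just upstream of the 5 prime end (84 peaks, interval 25.6 to 39.7) and 24.0 in the step just downstream (18.4 to 30.7). The step from 5000 to 4500 bp upstream reached nearly the same, 31.9 (81 peaks, 25.3 to 39.7) and the remaining steps around the 5 prime end lay between 16.6 and 24.9. The 20 steps around the 3 prime end lay between 14.0 and 25.9, with 19.5 on each side of the end. Height was similar by position, with no test made. Median pileup was 40 in members nearer to a 5 prime end (38 to 42) and 40 in those nearer to a 3 prime end (38 to 43). It was 41 inside the lncRNA span, where 1053 members lay (43.1%), and 41 outside it. Across the 2444 members, pileup and distance to the end had a Spearman correlation of −0.020, as a description over peaks of 1 library. Peak width rose with pileup, with a Spearman correlation of 0.76 in members, against 0.75 over all peaks.

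On either side of the 5 kb limit of the rule the medians were close. The 404 members between 4 and 5 kb from an end had a median pileup of 40 and a median fold enrichment of 7.96, and the 377 peaks just beyond it, between 5 and 6 kb, had 40 and 7.98. Members lay a median of 52778 bp from the nearest protein-coding gene, against 116673 bp for the other peaks away from coding genes, and 430 members (17.6%) were over 200 kb from one. Of those 24019 other peaks, 20077 were gene-desert peaks. The distance of the lncRNA ends themselves from coding genes was not measured, so the difference says nothing about the peaks. Pileup and the distance to the nearest coding gene had a Spearman correlation of −0.016 over the members.

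The members were spread over all 19 chromosomes, with 64 to 189 on each. Chromosome 15 had the highest density at lncRNA ends, 32.4 peaks per Mb (160 members, interval 27.6 to 37.9), against 27.3 over all its territory away from coding genes. Its local background was above the floor in 80.6% of members there, and on chromosome 4 in 35.8%, against 12.1 to 20.5% on the other 17 chromosomes. The part of this background in the density was not tested. Chromosome 17 had the lowest density, 14.6 (11.3 to 18.7), against 17.8 over its territory. Density at lncRNA ends was above that of the territory on 12 of 19 chromosomes, and on 15 of 19 the interval included the territory's value. On chromosomes 3, 14, 15 and 19 the interval lay above that value, which any unsequenced bases lower. On no chromosome did the interval lie below it. Chromosome 13 had the largest share of its peaks at lncRNA ends, 7.13%, and chromosome 17 the smallest, 3.86%.

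**Figure D5:**
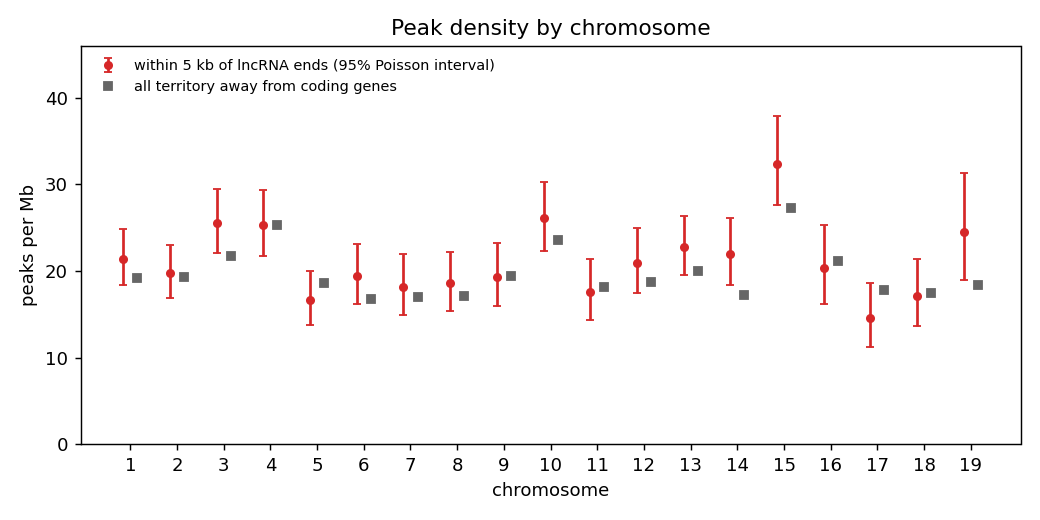
Peaks per Mb by chromosome within 5 kb of lncRNA ends (circles, with 95% Poisson intervals) and over all territory away from coding genes (squares). Chromosome 15 is highest on both measures, at 32.4 and 27.3, and on 15 of 19 chromosomes the interval includes the square. On chromosomes 3, 14, 15 and 19 the interval lies above the square.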

How the data were processed

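The members and gene lists were chosen with earlier results of these data known. The submitters' processing notes name BWA, MACS2 and build mm10. The caller was MACS 2.1.0.20151222, per the file headers, with paired-end input, the control library as background, a q-value cutoff of 0.01 and 1 fragment kept per position. It took 32659686 antisera fragments, of which 26253175 remained, and 40115471 control fragments, of which 23412256 remained. For mapping filters, and for reads that fit several places, settings were not given in the sources used here.

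The deposited pileup is a signal in fragments. Each peak's p-value and q-value were deposited as −log10. The deposited fold enrichment is a ratio, (pileup + 1) / (background + 1), from which the background was recovered; the Poisson p recomputed from it lay within 1% of the deposited one for 100% of 47896 peaks whose p could be computed. These values of the authors were used only inside their own list, for description and ranking.

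Genes came from RefSeq (GRCm38.p6: 12408 lncRNA, 20661 protein-coding and 9496 pseudogenes on chromosomes 1 to 19) and strands from its promoter table. Counts, medians (order-statistic intervals), exact binomial and Poisson intervals at 95% were computed in Python 3.11.15 with pandas 2.3.3, NumPy 2.4.6 and SciPy 1.17.1. They cover counting error only, treat neighbouring peaks as independent, and no test between groups was run. The position rule was checked on 5700 simulated positions against a direct computation, with 0 disagreements. Territory was counted from base 1 to the last gene or peak of each chromosome. Named were the 25 members of highest pileup with a background under 10, those with 10 or more, the 5 of highest fold, the genes with most members and the listed lncRNA genes. Alternatives were other distances, stricter q-values, left-out chromosomes, peaks or models, overlap by 1 bp, and 1 peak per gene.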

Additional observations from a re-analysis of the deposited data

Results flagged for a closer look

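Chromosome X, which lies outside the rule, also had called peaks at intergenic lncRNA ends. By the same distances 51 of its 2320 peaks were of this kind, with a median pileup of 45 antisera fragments, a median fold enrichment of 8.77 and a median local background of 4.01 from the control. The highest was at chrX:86726126-86726715 near *Gm39524*, with 170 fragments (34.1-fold), followed by 163 (32.7-fold) near *Gm41891* and 149 (29.9-fold) near *5530601H04Rik*. These peaks were used in no comparison above.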

How the results depend on the processing

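Of 92 recomputed values, 66 stayed within the counting interval of the reported value (for the number of members, within 1.5 times), and 26 did not. No test was made, so no call could be lost. Members made up 4.98% of the 49034 peaks as reported. With 2 kb in place of 5 kb they made up 2.33%, 12.8% of lncRNA genes had one and 46.6% of summits were inside the lncRNA; with 10 kb these were 8.57%, 38.8% and 39.3%. At a −log10 q of 10 or more, median fold enrichment was 9.36, the share at 20-fold or more 17.3%, the share of genes 22.2% and the density 18.1 peaks per Mb. Without peaks near a pseudogene end the share of genes was 24.0% and the density 20.3. With 1 peak per gene, median fold enrichment was 8.98, the share at 20-fold 17.7%, the density 16.8 and its ratio to the territory 0.849, which by construction counts fewer peaks. Without Gm and LOC models members made up 0.997% of the peaks, with a median fold enrichment of 8.58, 17.8% at 20-fold or more, 27.0% of genes, a density of 23.5 and a ratio of 1.19; the cause was not tested. A longer or shorter window around the summit was not run, since sequence was used only within promoter windows. The shorter pattern was chosen after seeing the data. No paired analysis was possible because each antibody has 1 library. Depth limits low peaks: the pileup of 20 at *Lincred1* has a 95% Poisson interval of 12.2 to 30.9.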
